A study of Mus musculus with 22 samples.

Results

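A set of 10 genes that mark microglia and macrophages were followed through whole brains of the inbred mouse strains DBA/2J (D2) and C57BL/6J (B6): Cx3cr1, P2ry12, Tmem119, Csf1r, Aif1, Itgam, Cd68, Trem2, Mrc1 and Cd14. The members were all rows of the deposited table whose platform gene symbol is one of these names alone. All 10 genes were found, with 151 probesets that held a value out of 1190406 in the whole table, and all 10 were among the 15951 genes tested. The samples were whole-brain total RNA of 12 D2 and 10 B6 mice, all naive adult males, with the RNA of 1 mouse on each Affymetrix Mouse Exon 1.0 ST array, a chip that carries several probesets along the exons of each gene. The mice carried no transgene or treatment. Values are log2 expression values made by the authors with RMA, and since the array was designed on B6 sequence, bases that differ in D2 can weaken hybridisation there while the transcript level stays the same. The table names no exon or coordinate for a probeset.

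Microglia are the resident macrophages of brain tissue. They depend on signalling through the receptor Csf1r, survey the tissue through the purinergic receptor P2ry12 and the fractalkine receptor Cx3cr1, and take up debris through receptors such as Trem2, with the cargo passing to lysosomes that carry the Cd68 protein. Macrophages at the borders of the brain, around vessels and in the meninges, are marked by the mannose receptor Mrc1. In bulk tissue, fewer cells of a type and less RNA per cell cannot be told apart.

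Over all arrays, the median of the probesets of an array lay between 1.41 and 1.51, and probesets with a mean of at least 1.44 over the 22 arrays, the median of all probeset means, were kept. A gene value is the median, on each array, of a gene's kept probesets. The array median was 1.48 ± 0.018 in D2 and 1.44 ± 0.018 in B6, and the median gene value of an array was 4.58 ± 0.098 in D2 and 4.68 ± 0.10 in B6 (SD, n = 12 and n = 10), so that array-wide level and strain moved together. File names of the arrays carry a letter, B on 2 arrays of each strain and A on the other 10 D2 and 8 B6 arrays. No label explains the letter. For the labelled tissue, 12 of 13 neuronal marker genes were measured, with a mean level per array between 8.09 and 8.47 in D2 and between 8.27 and 8.55 in B6.

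Most of the 10 genes did not differ detectably between the strains, and Cd68 and Mrc1 were the exceptions. Both were lower in D2, Cd68 by 0.49 ± 0.12 and Mrc1 by 0.32 ± 0.085 on the log2 scale (SE). With limma and Benjamini-Hochberg adjustment over all 15951 genes, 2 of the 10 were called at an adjusted p under 0.05 (20.0%), both lower in D2, against 10.9% of all genes tested, of which 8.29% were lower and 2.56% higher in D2. The median difference of the 10 genes was -0.056, beside -0.053 over all genes tested. No member had D2 and B6 values that stood wholly apart, a pattern found for 1.18% of all genes. At an unadjusted p under 0.05 the count was 3 of 10 members, near the 25.3% of all genes tested.

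**Figure D1:**
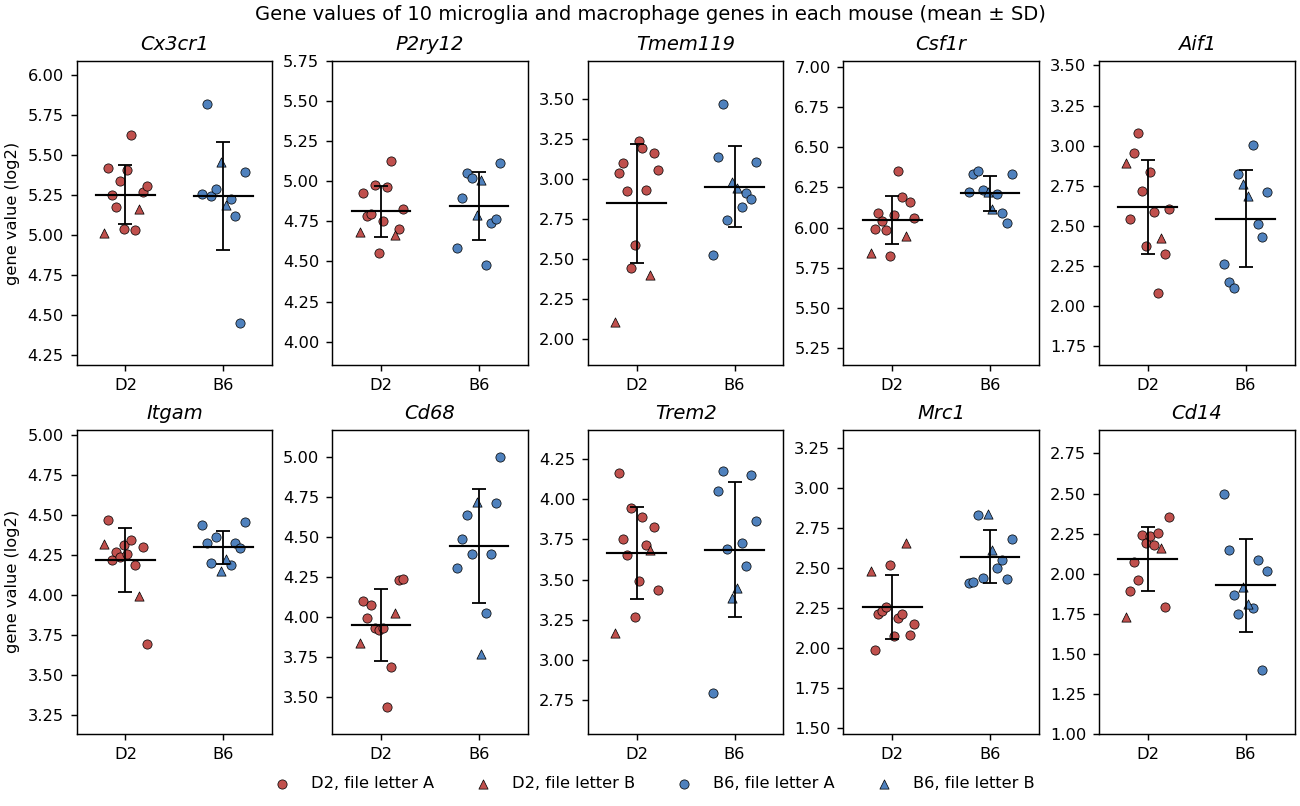
Gene values (log2, vertical axes, all spanning the same range) of the 10 genes in each mouse, D2 in red and B6 in blue, with the mean and SD in black and triangles for arrays with file letter B. For Cd68, 8 of the 10 B6 mice lie above the highest D2 mouse, and for Mrc1, 9 of the 12 D2 mice lie below the lowest B6 mouse.

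The survey and growth-factor receptors come first. Cx3cr1, the receptor for neuronal fractalkine, ranged from 5.01 over a median of 5.26 to 5.62 in D2 mice and from 4.45 over 5.25 to 5.82 in B6 mice. The 2 strains overlapped over almost their whole range, and the lowest B6 mouse, replicate 11, stood apart from the next one at 5.12. The difference was 0.0086 (95% interval -0.22 to 0.24, limma adjusted p = 0.972).

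P2ry12, which senses nucleotides released from damaged cells, ranged from 4.55 over 4.79 to 5.13 in D2 and from 4.48 over 4.84 to 5.12 in B6. Here too the strains overlapped throughout, with a difference of -0.032 (95% interval -0.21 to 0.14, limma adjusted p = 0.850). Of its 7 probesets, 4 were kept and the other 3 had means over all arrays below the filter.

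Csf1r, the receptor for the growth factors Csf1 and Il34 on which microglia depend, was measured by 31 kept probesets of 33. It ranged from 5.82 over 6.05 to 6.35 in D2 and from 6.03 over 6.22 to 6.35 in B6, so that 11 of the 12 D2 mice lay below the B6 median while the highest mice of both strains were level. The difference of -0.17 (95% interval -0.31 to -0.025) had an unadjusted p of 0.0233 and missed the threshold after adjustment over all genes (limma adjusted p = 0.125). Of its kept probesets 26 were lower and 5 higher in D2, with a median difference of -0.19. None of these was called. An unadjusted limma p under 0.05 was found for 5 of the 31, all of them lower, beside 16.6% of all kept probesets in either direction. With arrays centred on their gene median the difference of the gene value was -0.067 (limma adjusted p = 0.479). With the array median as covariate it was -0.11 (limma adjusted p = 0.655).

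Tmem119, a membrane protein used to tell microglia from other macrophages, ranged from 2.11 over 2.98 to 3.23 in D2 and from 2.52 over 2.93 to 3.46 in B6. Its difference was -0.10 (95% interval -0.37 to 0.16, limma adjusted p = 0.653). The lowest D2 values were those of replicates 13 and 22, the letter B arrays of that strain, whose mean of 2.25 compares with 2.97 on the D2 letter A arrays. In B6 the letters did not separate the gene, at 2.96 on letter B and 2.95 on letter A arrays. On the letter A arrays alone the difference between strains was 0.017.

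Aif1, which encodes the actin-bundling protein Iba1 stained in most histology of microglia, ranged from 2.08 over 2.597 to 3.08 in D2 and from 2.11 over 2.598 to 3.002 in B6. The medians were level, and the difference was 0.073 (95% interval -0.18 to 0.32, limma adjusted p = 0.75). Its 6 kept probesets moved little together from mouse to mouse, with a median r of -0.013 between a probeset and the median of the others over the 22 arrays, each centred on its strain (a description over arrays that share the probesets of 1 gene).

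Itgam, the CD11b chain of complement receptor 3, was measured by 36 kept probesets of 41. It ranged from 3.69 over 4.26 to 4.47 in D2 and from 4.15 over 4.31 to 4.46 in B6, and the low end in D2 rested on replicates 24 and 22. Its difference was -0.080 (95% interval -0.24 to 0.081, limma adjusted p = 0.553), with 19 probesets lower and 17 higher in D2. The sign of this small difference turned to 0.064 with no filter on dim probesets, to 0.074 with a filter at the 75th percentile, to 0.0092 with the mean over probesets and to 0.020 with arrays centred on their gene median, and no direction can be given.

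Trem2, a lipid-sensing receptor of phagocytes, ranged from 3.17 over 3.70 to 4.17 in D2 and from 2.79 over 3.71 to 4.18 in B6. The strains overlapped, with a difference of -0.021 (95% interval -0.31 to 0.27, limma adjusted p = 0.944). Its 7 probesets went both ways, 4 lower and 3 higher in D2, from -0.41 to 0.46, and none was called.

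Cd14, the co-receptor through which phagocytes recognise bacterial lipopolysaccharide, ranged from 1.73 over 2.17 to 2.35 in D2 and from 1.40 over 1.89 to 2.50 in B6. The strains overlapped, with 9 of the 12 D2 mice above the B6 median. The difference of 0.16 (95% interval -0.053 to 0.37) was the largest positive one of the 10 and was not called (limma adjusted p = 0.348). All 4 kept probesets had means between 1.65 and 2.68, close to the filter level of 1.44. Of these, probeset 5197235 had a mean of 1.43 in B6, below the filter level, and 1.84 in D2. It thus passed the filter through its D2 values, and its difference gives no support for a higher level in D2.

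Cd68, a glycoprotein of late endosomes and lysosomes in phagocytes, showed the largest difference among the 10. Its gene value was 3.44 in the lowest, 3.97 in the median and 4.24 in the highest D2 mouse, against 3.77, 4.44 and 5.002 in B6 mice. All 12 D2 mice lay below the B6 median, and 8 of the 10 B6 mice lay above every D2 mouse, the others being replicates 6 and 8. The means were 3.95 ± 0.22 in D2 and 4.44 ± 0.36 in B6 (SD, n = 12 and n = 10), a ratio of 0.711 (95% interval of the log2 difference -0.74 to -0.25, limma adjusted p = 0.00778). The call was kept with letter A arrays alone (-0.54, adjusted p = 0.00636) and without D2 replicates 13, 14 and 19 (-0.49, adjusted p = 0.0242), the arrays that correlated least with the others of their strain in earlier work on these data. It was lost with the array median as covariate (-0.35, adjusted p = 0.35).

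The 9 probesets of Cd68 did not share the fall evenly. Of these, 8 were lower in D2 and 1 higher, and none was called on its own (3 had an unadjusted limma p under 0.05, all lower), against 3.91% of all kept probesets called in either direction and 4.06% of those with 1 gene symbol. The 2 brightest, with means of 6.47 and 4.93 over all arrays, differed by -0.027 and -0.019, whereas the next 3 in brightness differed by -0.42, -0.53 and -0.54. The median difference of the 9 probesets was -0.28, a smaller fall than the -0.49 of the gene value. Averaging over the probesets in place of taking their median gave a difference of -0.22 (limma adjusted p = 0.0242). From mouse to mouse the probesets moved little together, with a median r of 0.025 to the rest of the gene.

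Mrc1, the mannose receptor CD206 that marks macrophages at vessels and meninges, ranged from 1.99 over 2.21 to 2.66 in D2 and from 2.40 over 2.52 to 2.84 in B6. Of the 12 D2 mice, 9 lay below the lowest B6 mouse, and the exceptions were replicates 13, 18 and 22. The means were 2.25 ± 0.20 in D2 and 2.57 ± 0.17 in B6 (SD, n = 12 and n = 10), a ratio of 0.804 (95% interval of the log2 difference -0.49 to -0.14, limma adjusted p = 0.0157). Replicates 13 and 22 are the letter B arrays of D2, with a mean of 2.57 against 2.19 on the letter A arrays of that strain, and in B6 the letter B mean was also the higher, at 2.73 against 2.53. With letter A arrays alone the difference was -0.34 (adjusted p = 0.00871) and with the letter B arrays alone -0.16 (adjusted p = 0.787). The call was lost with arrays centred on their gene median (-0.22, adjusted p = 0.127) and with the array median as covariate (-0.24, adjusted p = 0.357).

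The 24 kept probesets of Mrc1 had means over all arrays between 1.56 and 3.73, the dimmest of them close to the filter level of 1.44. Of these 24, 21 were lower and 3 higher in D2, with a median difference of -0.30. An unadjusted limma p under 0.05 was found for 5, all lower, beside 16.6% of all kept probesets in either direction. Both counts include probesets 5551548 and 4567454, described next, which passed the filter through their B6 values. The 21 also include 5392608 and 5430746, with means of 1.41 and 1.38 in D2 and 1.82 and 1.78 in B6. The counts thus rest in part on probesets kept through B6. Probesets 5551548 and 4567454 were called on their own, both lower in D2, as were 2.24% of all kept probesets. The first ranged from 0.10 over 1.38 to 2.604 in D2 and from 1.71 over 2.47 to 3.84 in B6, a difference of -1.15 ± 0.25 (SE, limma adjusted p = 0.00706). Replicate 22 was the only D2 mouse above the B6 median of this probeset. Probeset 4567454 ranged from 0.14 over 1.52 to 2.03 in D2 and from 1.25 over 2.21 to 2.57 in B6, a difference of -0.81 ± 0.21 (SE, adjusted p = 0.0287). The D2 means of both, 1.31 and 1.32, lay below the filter level of 1.44, as did those of some uncalled kept probesets of Mrc1. The B6 means of the 2 called probesets were 2.46 and 2.13. Both thus passed the filter through their B6 values, and their calls give no support for a strain difference of Mrc1. The remaining 8 probesets of Mrc1 were below the filter, and 7 of them had lower means in D2.

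**Figure D2:**
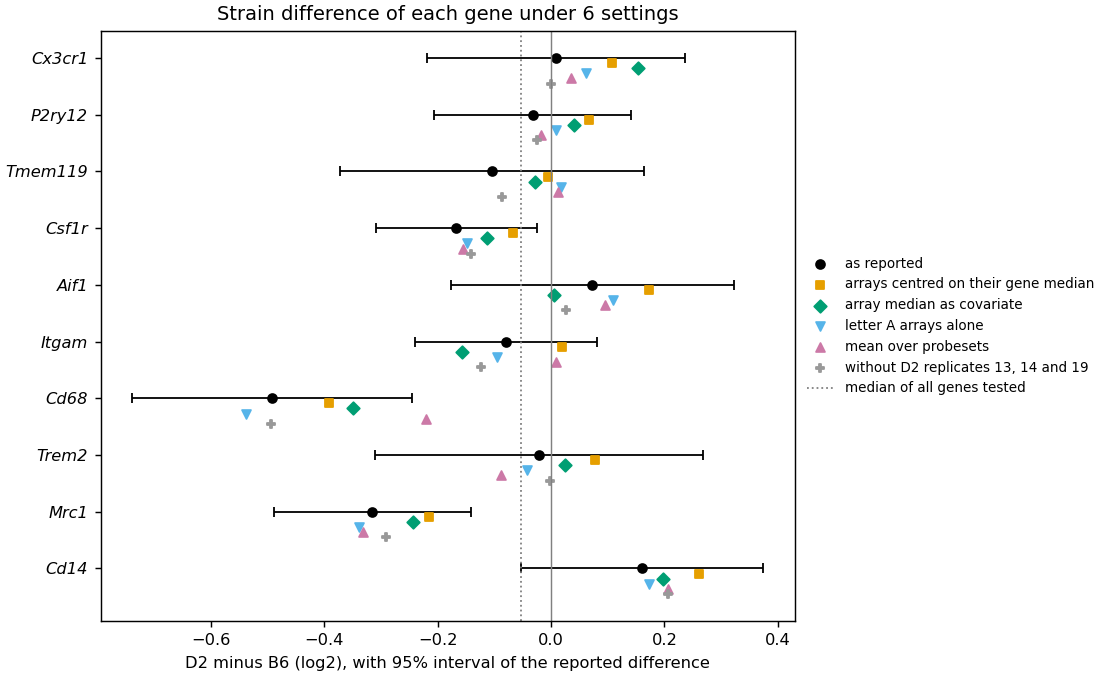
Difference between strains (D2 minus B6, log2, horizontal axis) of each gene, with the 95% interval of the reported value in black and the value under 5 alternatives in colour. The points of Cd68 and Mrc1 lie below 0 under each of the settings drawn, and the interval of the reported value excludes 0 for these genes and Csf1r.

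**Figure D3:**
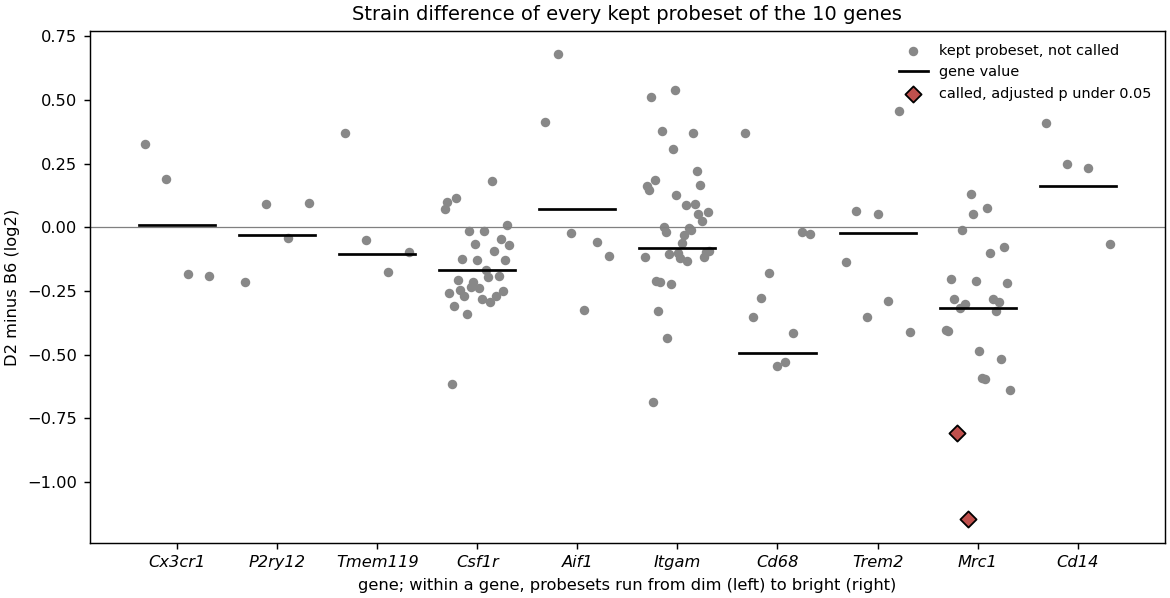
Difference between strains (D2 minus B6, log2, vertical axis) of each of the 129 kept probesets, ordered from dim to bright within a gene, with the difference of the gene value as a black line. The 2 called probesets, both of Mrc1, are drawn as red diamonds at -1.15 and -0.81, and both passed the filter through their B6 values.

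The start regions of the 2 genes that fell are shown because both are genes of myeloid cells, and the myeloid factor PU.1 is known to bind sites that often hold the letters GAGGAA. Each sequence runs from 250 bases before to 50 bases after the annotated start, from RefSeq on GRCm38.p6, and is given 5′ to 3′ on the strand of the gene. Capitals mark GAGGAA or its reverse complement TTCCTC. Cd68 lies on the minus strand (chr11:69666121-69666420) and Mrc1 on the plus strand (chr2:14229164-14229463).
Cd68: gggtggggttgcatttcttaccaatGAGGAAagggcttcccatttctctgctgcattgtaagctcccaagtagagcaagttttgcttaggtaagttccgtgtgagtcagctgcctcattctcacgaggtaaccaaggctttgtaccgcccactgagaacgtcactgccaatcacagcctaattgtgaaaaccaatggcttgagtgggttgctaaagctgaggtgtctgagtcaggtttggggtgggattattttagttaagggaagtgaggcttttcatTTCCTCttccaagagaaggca
Mrc1: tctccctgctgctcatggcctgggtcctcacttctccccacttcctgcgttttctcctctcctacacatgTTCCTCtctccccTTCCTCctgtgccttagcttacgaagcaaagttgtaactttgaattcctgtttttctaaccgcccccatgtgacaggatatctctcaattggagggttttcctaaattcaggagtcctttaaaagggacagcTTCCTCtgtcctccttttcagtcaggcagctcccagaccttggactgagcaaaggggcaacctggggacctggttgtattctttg
The Cd68 window holds these letters 2 times and the Mrc1 window 3 times. Among the 7 members whose window was used, Aif1, Itgam, Cd68, Trem2 and Mrc1 hold them on either strand, while Cx3cr1 and P2ry12 hold none. This is 5 of 7, beside 28.3% of the 32851 windows of this length in the table. No window of Tmem119, Csf1r or Cd14 was used, whereas the 28.3% covers all windows, so the 2 shares are not of like sets. A match is a description of the reference sequence and not evidence of a bound site. Any role of PU.1 in the strain differences was not tested.

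Over all 10 genes, 129 of the 151 probesets were kept and 22 lay below the filter. Of the kept ones, 2 were called between strains, against 3.91% of all 595203 kept probesets, and both passed the filter through their B6 values. An unadjusted limma p under 0.05 was found for 21 of the 129, a share close to the 16.6% of all kept probesets below that p. Of these 21, 16 were lower in D2, and the 16 include the 2 called probesets of Mrc1. The median difference of the members' kept probesets was -0.10, beside 0.014 over all kept probesets. No probeset of a member had D2 and B6 values that stood wholly apart, against 0.770% of all kept probesets. In the 9 genes with no called probeset, the largest differences of a probeset were 0.33 for Cx3cr1 (probeset 5289916), -0.22 for P2ry12 (probeset 5544139), 0.37 for Tmem119 (probeset 4736617), -0.62 for Csf1r (probeset 4479545), 0.68 for Aif1 (probeset 4836117), -0.69 for Itgam (probeset 4927102), -0.54 for Cd68 (probeset 4597890), 0.46 for Trem2 (probeset 4538412) and 0.41 for Cd14 (probeset 5197235). The Cd14 probeset passed the filter through its D2 values.

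Exon usage was measured by the splicing index, the value of a probeset minus its gene value on the same array, and called at a limma adjusted p under 0.05 and a difference of at least 0.5. Differences of splicing between the strains are what the series was titled for. One probeset of the members, 5551548 of Mrc1, was called, with an index difference of -0.83 ± 0.22 in D2 against B6 (SE, adjusted p = 0.0433), beside 1.67% of all 236254 probesets tested. This probeset passed the filter through its B6 values, since its mean was 1.31 in D2 and 2.46 in B6 with the filter at 1.44, so the call gives no support for a difference in exon usage. It was not called without D2 replicates 13, 14 and 19, with no filter, or with the filter at the 75th percentile.

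Lists of other microglial and myeloid genes were read on the same arrays. Of 21 measured homeostatic microglia genes outside the 10, 7 fell in D2, none rose and 14 were not called, so that 33.3% were lower, beside 8.29% of all genes tested, and the list's median difference was -0.25 beside -0.053 over all genes. The share lower was not particular to this list. In lists of other brain cells it ran from 8.33% of neuronal genes to 27.3% of oligodendrocyte and 33.3% of astrocyte genes. The lists were chosen with earlier results of these data known. Fcrls, an Fc receptor-like gene used as a microglial marker in mice, had the largest difference. It was at 2.29 in the lowest, 2.56 in the median and 2.77 in the highest D2 mouse, against 4.13, 4.27 and 4.81 in B6. The strains did not overlap, and the difference was -1.81 ± 0.082 (SE, limma adjusted p = 5.24e-15). C1qb, a chain of the complement starter C1q, ranged from 4.30 over 4.95 to 5.62 in D2 and from 5.28 over 5.95 to 6.47 in B6 (-0.90, limma adjusted p = 0.000156), while its partner chains C1qa (-0.14) and C1qc (-0.25) were not called. The lectin gene Siglech (-0.46) and Selplg, the ligand of P-selectin (-0.45), also fell, as did Mertk, Slc2a5 and Sparc. With the array median as covariate Siglech was at -0.040 (adjusted p = 0.954) and Slc2a5 at -0.14 (adjusted p = 0.72).

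The count of 7 moved with the scaling. With arrays centred on their gene median 4 of the 21 were called, 3 lower (Fcrls, C1qb, Mertk) and 1 higher, Gpr34, a receptor for lysophosphatidylserine that was at 0.45 and not called in the reported fit (adjusted p = 0.057). With the array median as covariate only Fcrls was called. Without D2 replicates 13, 14 and 19 the calls were 4 lower and 1 higher.

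Among ligands and partners of the 10 genes, 18 of 20 were measured, 2 fell and 16 were not called. The share lower was 11.1%, beside 8.29% of all genes tested. Tyrobp, the DAP12 adaptor through which Trem2 signals, fell by 0.44 (3.18 ± 0.28 in D2 and 3.62 ± 0.32 in B6, SD, n = 12 and n = 10, limma adjusted p = 0.019), and the receptor gene Tgfbr1 fell by 0.27 (adjusted p = 0.0488). Neither call was kept with arrays centred on their gene median (adjusted p = 0.0704 and 0.172). The growth factors that act on Csf1r were at 0.070 (Csf1) and -0.093 (Il34), the Cx3cr1 ligand Cx3cl1 at -0.043, Tgfb1 at -0.036 and Itgb2, the partner chain of Itgam, at -0.22, and none of these was called.

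Of 24 measured genes of myeloid identity and signalling, 2 fell (Tyrobp again and the Fc receptor gene Fcgr1 at -0.44) and 22 were not called. The share lower, 8.33%, was near the 8.29% of all genes tested. The Fcgr1 call was lost in 6 of 13 alternatives, and with no filter its difference was -0.21 (adjusted p = 0.383). With the array median as covariate it was -0.13 (adjusted p = 0.81). Of 13 measured genes of border-associated macrophages, the cell type that Mrc1 marks, 1 fell, the scavenger receptor gene Stab1 (-0.42 ± 0.074, SE, limma adjusted p = 0.000256), and 12 were not called. This share of 7.69% was also near that of all genes. The uncalled genes went both ways around a list median of 0.010. The lysozyme gene Lyz2 was at -0.41 (limma unadjusted p = 0.018, adjusted p = 0.107), Ms4a7 at -0.15 and F13a1 at -0.13, while Ccl24 was at 0.32, Siglec1 at 0.20, Cd163, the haemoglobin scavenger receptor, at 0.12 and Lyve1 at 0.059. Of 17 measured genes of activated microglia, Lpl rose, Gpnmb, Spp1 and Fth1 fell and 13 were not called. The shares were 5.88% higher and 17.6% lower, beside 2.56% and 8.29% of all genes tested. Lpl, lipoprotein lipase, was at 4.96 ± 0.20 in D2 and 3.81 ± 0.27 in B6 (SD, n = 12 and n = 10), a difference of 1.15 (limma adjusted p = 3.07e-09). Neurons and astrocytes express several of these genes too. Gpnmb carries a known nonsense allele in D2.

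**Figure D4:**
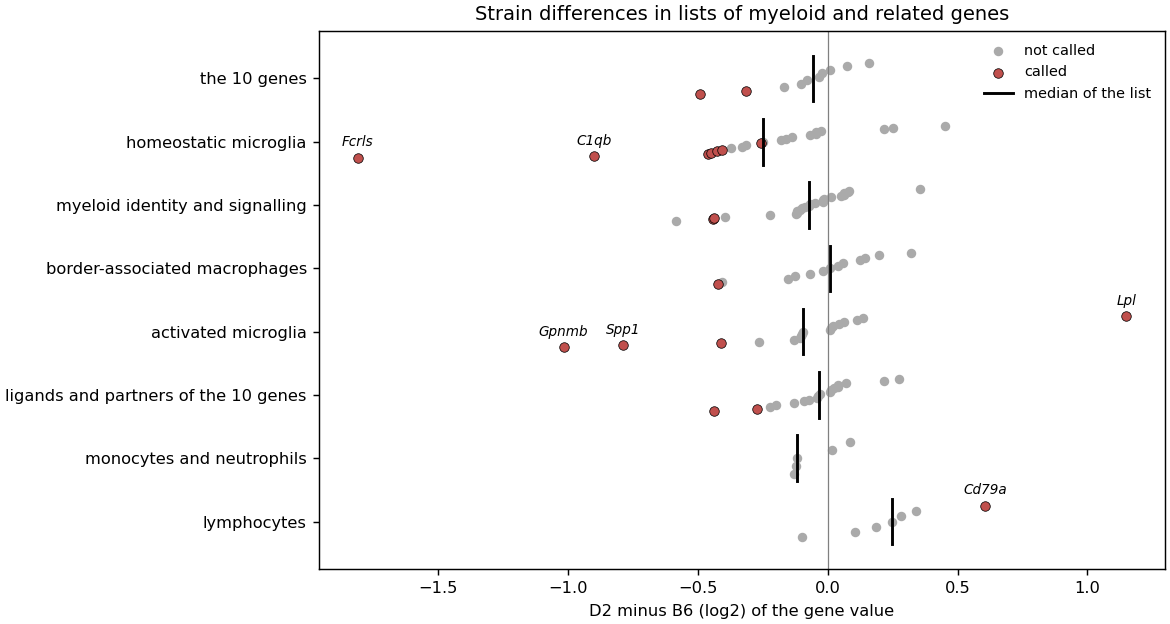
Difference between strains (D2 minus B6, log2, horizontal axis) of each measured gene in lists of myeloid and related genes, called genes in red, with each list's median as a black bar. Fcrls at -1.81 and C1qb at -0.90 lie far to the left of the 10 genes, and Lpl at 1.15 is the called gene farthest to the right.

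Markers of the other cells that could add such transcripts were read on the same arrays. Of 15 genes of monocytes and neutrophils only 5 had enough kept probesets to be measured, and Ccr2, Ly6g, S100a8 and S100a9 were not among them. None of the 5 was called by limma, and 0 had an unadjusted p under 0.05. Of 16 lymphocyte genes 7 were measured and 1 was called (14.3%, beside 10.9% of all genes tested), the B cell receptor gene Cd79a, at 0.61 higher in D2 near the filter level (2.50 ± 0.60 in D2 and 1.90 ± 0.37 in B6, SD, limma adjusted p = 0.0485). With no filter Cd79a was at 0.18 (adjusted p = 0.36), with the mean over probesets at 0.28 (adjusted p = 0.141) and on the letter B arrays alone at -0.19 (adjusted p = 0.747). The mean level of the measured lymphocyte genes ranged from 2.20 to 2.79 per array in D2 and from 2.12 to 2.50 in B6. Genes of other brain cells were called too: 4 of 12 astrocyte genes fell and 1 rose, 3 of 11 oligodendrocyte genes fell, as did 2 of 10 endothelial genes, 2 of 11 pericyte and fibroblast genes and 1 of 12 neuronal genes. In this order the shares lower were 33.3%, 27.3%, 20.0%, 18.2% and 8.33%, beside 8.29% of all genes tested. The neuronal share was thus near that of all genes. The median differences of these 5 lists lay between -0.17 and -0.045. Of 3 measured red blood cell genes, 2 fell. The part of these shifts in the values of Cd68 and Mrc1 was not tested.

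Covariation among mice of 1 strain was read from the 45 pairs of the 10 genes in each strain. Positive and negative relations were mixed. The median r was 0.021 over 12 D2 mice and 0.17 over 10 B6 mice, beside 0.083 and 0.078 over all pairs of the genes tested. Of the 45 pairs 24 were positive in D2 and 27 in B6, and r exceeded 0.5 for 15.6% of the pairs in D2 and 11.1% in B6, against 11.3% and 15.1% of all gene pairs. With arrays centred on their gene median, the median r of the members was 0.13 in D2 and -0.075 in B6. None of the 90 relations passed Benjamini-Hochberg adjustment (lowest adjusted p = 0.137, permutation test, two-sided). At an unadjusted p under 0.05 there were 9 in D2 and 3 in B6 by Pearson's r, and 8 in D2 and 2 in B6 by Spearman's rho.

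**Figure D5:**
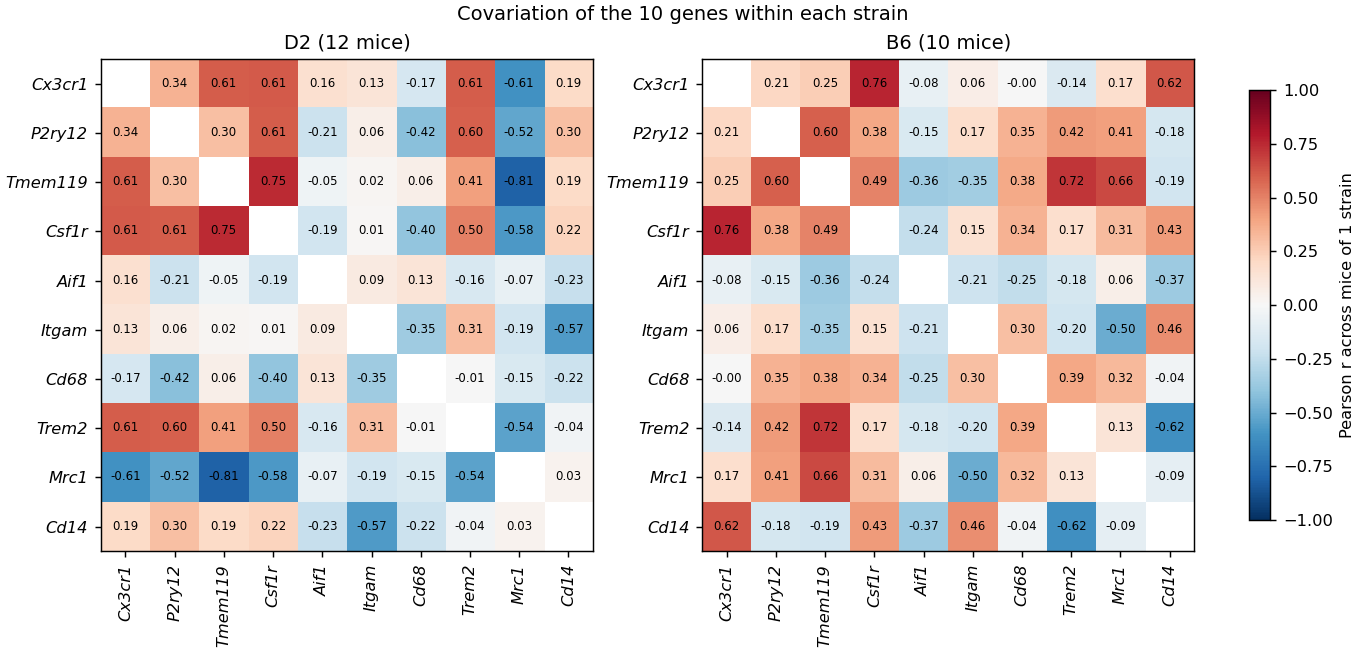
Pearson r between the gene values of each pair of the 10 genes, across 12 D2 mice (left) and 10 B6 mice (right), from blue (negative) to red (positive). In D2, Cx3cr1, P2ry12, Tmem119, Csf1r and Trem2 are all positively related to one another while Mrc1 is negative with each of these, and none of the values passed adjustment.

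In D2 a block of 5 genes, Cx3cr1, P2ry12, Tmem119, Csf1r and Trem2, picked after the values were seen, had positive r in every pair. The closest pair was Tmem119 with Csf1r (r = 0.75, permutation p = 0.00457, adjusted p = 0.137; rho = 0.79, permutation p = 0.00355, adjusted p = 0.16). Without the 2 mice farthest from the median of Tmem119, r was 0.65. The same pair in B6 was at r = 0.49 (permutation p = 0.145, adjusted p = 0.623; rho = 0.49, permutation p = 0.155, adjusted p = 0.723). The block was not particular to D2. In B6 only Cx3cr1 with Trem2 was negative (r = -0.14). All other pairs of the 5 genes were positive there, from 0.17 for Csf1r with Trem2 to 0.76 for Cx3cr1 with Csf1r.

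Mrc1 went against that block in D2. It was highest in the D2 mice with the least Tmem119 (r = -0.81, permutation p = 0.0028, adjusted p = 0.137; rho = -0.83, permutation p = 0.00152, adjusted p = 0.137), and r was -0.68 without the 2 mice farthest from the median of Tmem119, which are the letter B arrays. In B6 the same genes had r = 0.66 (permutation p = 0.0346, adjusted p = 0.326; rho = 0.58, permutation p = 0.0896, adjusted p = 0.62), and 0.31 without the 2 mice farthest from the median. Whether the strains differ in this relation was not tested. With the mean over probesets in place of the median, r in D2 was -0.88 and passed adjustment (permutation test, adjusted p = 0.0072), whereas in B6 it was 0.18. From mouse to mouse the probesets within each gene moved little together. Their median r to the rest of the gene was 0.027 for the 4 kept probesets of Tmem119 and 0.15 for the 24 of Mrc1.

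The closest pair in B6 was Cx3cr1 with Csf1r (r = 0.76, permutation p = 0.00396, adjusted p = 0.137; rho = 0.72, permutation p = 0.023, adjusted p = 0.415). It moved with the array-wide level, since in B6 the correlation of the median gene value of an array with Cx3cr1 was 0.80 and with Csf1r 0.88. With arrays centred on their gene median the r of the pair was 0.12, and without the 2 mice farthest from the median of Cx3cr1 it was 0.56. In D2 the pair was at r = 0.61 (permutation p = 0.0333, adjusted p = 0.326; rho = 0.40, permutation p = 0.2, adjusted p = 0.723), 0.66 with arrays centred and 0.13 without the 2 mice farthest from the median.

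For Aif1 and Cd68, both widely used as microglial markers, the median r to the other members was negative except for Cd68 in B6. It was also negative for Mrc1 in D2 (-0.52) and for Cd14 in B6 (-0.089). The median r of Aif1 to the other 9 genes was -0.072 in D2 and -0.21 in B6. That of Cd68 was -0.17 in D2, with 2 of 9 pairs positive, and 0.32 in B6, with 6 of 9 positive, near the 0.34 of Csf1r and the 0.38 of Tmem119 in that strain. Within-strain SDs of the members were ordinary for the array, with a median of 0.25 for the members and 0.25 for all genes tested.

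The genes most like the 10 were sought by Pearson r, over the 22 strain-centred arrays, to the mean of the 10 scaled gene values. The 8 nearest were Hcfc1r1 (0.81), Dda1, Trh, Brinp3, Pdyn, Eif2b2, Pm20d1 and Cnrip1 (0.77), none of which is in the myeloid lists used here. With arrays centred on their gene median first, these values were between -0.039 and 0.47, so the likeness moved with the array-wide level. For single members, P2ry12 was nearest to Itgb2, the integrin chain of leukocytes (r = 0.75, and 0.65 with arrays centred), and Cx3cr1 to Ifi30, a thiol reductase of antigen-presenting cells (r = 0.75, and 0.64). Their next genes were Nmt1 and Cyb561a3. The 2 nearest genes of the others were Tmem205 and Drd3 for Tmem119, Hcfc1r1 and Asb1 for Csf1r, Prox2 and Rnf17 for Aif1, Wscd1 and Klhl5 for Itgam, Rint1 and D130037M23Rik for Cd68, Gpaa1 and Cyb5r3 for Trem2, Exoc6b and Ubac1 for Mrc1 and Pkd2l2 and Rhoc for Cd14, with r from 0.66 to 0.87.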

How the data were processed

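The authors deposited 1 table of log2 expression values for 1201338 probesets on 22 arrays, and per the submitters' processing notes these were made by RMA (affy 1.12.2, R 2.6.0), a method of background correction, quantile normalisation and probe summary. Neither its options nor the probeset definition is stated in the labels. The 10932 probesets empty on all arrays were left out. Per the labels, 2 further arrays were read on another scanner and are not in this set. Precision is limited by the number of arrays.

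Gene names came from the platform annotation, and only probesets with 1 symbol were used. Older symbols were updated through a table of current mouse names. Updating added no row to the 10 genes. Probesets with a mean at or above 1.44 were kept (595203), and genes needed at least 3. Tests used limma 3.58.1 in R 4.3.3 (lmFit, eBayes, D2 minus B6, Benjamini-Hochberg over all features, called at an adjusted p under 0.05). Covariation used 100000 permutations. Each mouse is 1 replicate. On simulated data for the test of gene values over 15951 genes, 14% of changes of 0.25 (log2), 70% of changes of 0.5 and 98% of changes of 1 were recovered, and 10 of 151 calls were false. Figures were drawn with matplotlib 3.10.9.

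The 10 genes, the other lists and the tests were chosen with earlier results of these data known. Named were all members, their called probesets or the 1 with the largest difference, up to 4 called genes per list with the largest differences, and the genes most like the members. Other genes and probesets named (Mertk, Slc2a5, Sparc, Gpr34, C1qa, C1qc, Cd163, Lyve1, F13a1, Lyz2, Ms4a7, Ccl24, Siglec1, the uncalled ligands and partners, the unmeasured blood cell genes and the brightest Cd68 probesets) were chosen after their values were seen. Alternatives covered the filter, the summary of probesets, scaling, file letter, weights and the arrays used.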

Additional observations from a re-analysis of the deposited data

Results flagged for a closer look

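Cx3cr1 in B6 replicate 11 was at 4.45, far below the other 9 B6 mice, of which the next lowest was at 5.12. Its gap, set against the range of the 10 B6 mice, passed Dixon's 95% limit, which about 1 in 20 groups pass by chance. The 10 genes were each tested in B6, and D2, with 12 mice, was not tested. The same array had the lowest Csf1r (6.03) and the lowest Cd14 (1.40) of the B6 mice and the lowest median gene value of its strain (4.52), while its Trem2 (4.15) was the second highest and its Cd68 (4.71) the third highest of the B6 mice. Without this array the difference of Cx3cr1 was -0.079 (limma adjusted p = 0.597), and its r with Csf1r in B6 was 0.59.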

How the results depend on the processing

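As reported, 2 members were called, both lower in D2, and the same 2 were called with no filter, with the mean over probesets, with the file letter as block, with letter A arrays alone, with array weights, with robust or trended variance, and without D2 replicates 13, 14 and 19 or B6 replicate 11 (both sets chosen after seeing the data). The count was 1 with the filter at the 75th percentile, where 6 members were measured and Mrc1 was not, 1 with arrays centred on their gene median, 0 with the array median as covariate and 0 with the 4 letter B arrays alone. Over these 13 settings the 10 genes gave 126 differences, 101 with the same direction and side of the threshold, 5 weaker and 20 with the opposite sign, all 20 of genes not called. These were Itgam (0.064, 0.074, 0.0092, 0.020, as above); Cx3cr1 at -0.17 (75th percentile), -0.24 (letter B), -0.040 (weights), -5.21e-05 (without D2 replicates 13, 14 and 19) and -0.079 (without B6 replicate 11); Trem2 at 0.059 (75th percentile), 0.078 (centred), 0.024 (covariate), 0.012 (letter B) and 0.030 (without B6 replicate 11); P2ry12 at 0.067 (centred), 0.040 (covariate) and 0.0086 (letter A); Tmem119 at 0.012 (mean) and 0.017 (letter A); and Aif1 at -0.067 (letter B). Cd79a turned to -0.19 on letter B arrays, and r of Tmem119 with Mrc1 in B6 to -0.019 with no filter.

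Of the homeostatic genes 11 were called with the mean over probesets, 4 with arrays centred, 1 with the covariate, 1 with letter B arrays and 11 with array weights. The members' called probesets numbered 0 with the covariate, and their exon usage calls 0 with no filter, at the 75th percentile and without D2 replicates 13, 14 and 19. The covariate also gave 1 exon usage call, of Itgam and higher in D2. Covariation called 2 pairs, both in D2, with the mean over probesets. All genes called were 1732, against 2715 with the mean, 489 with the covariate and 74 on letter B arrays, and 76.4% of calls were lower in D2, against 42.2% with arrays centred and 46.2% with the covariate. The array median differed between strains on average and overlapped between them. The causes of these changes were not tested. No paired analysis was possible because the strains share no replicate numbers.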

Other observations

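Mrc1 was also set against the mean scaled values of the other lists within each strain, as a description without a test. In D2 its r was -0.74 with the ligands and partners of the 10 genes, -0.65 with genes of myeloid identity, -0.57 with genes of activated microglia and -0.31 with border-associated macrophages. In B6 the same values were 0.36, 0.32, 0.40 and -0.26. With homeostatic microglia genes r was -0.45 in D2 and 0.20 in B6. Negative values in D2 were not particular to myeloid lists. There r was -0.50 with lymphocyte genes, -0.41 with pericyte and fibroblast genes and -0.38 with neuronal genes. Endothelial genes went the other way in D2, at 0.29. All points of a strain share the same 12 or 10 arrays and the array-wide level. Cd68 had r between -0.35 and 0.12 with the 13 lists in D2, and between -0.34 and 0.64 in B6.

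The mean of the 10 scaled genes went with the homeostatic microglia genes at r = 0.68 in D2 and 0.83 in B6. Lists of other cells reached like values. In D2, r was 0.77 with lymphocyte genes, 0.60 with pericyte and fibroblast genes, 0.55 with neuronal genes, 0.34 with oligodendrocyte genes, 0.29 with astrocyte genes and 0.022 with endothelial genes. In B6 it was -0.35 with lymphocyte genes, 0.66 with pericyte and fibroblast genes, 0.63 with neuronal genes, 0.82 with oligodendrocyte genes, 0.80 with astrocyte genes and 0.75 with endothelial genes.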
